A study of Homo sapiens with 18 samples.

Results

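The 36 genes described here are mitosis and G2/M genes: the mitotic cyclins with CDK1 and the factors of mitotic entry, the mitotic kinases, spindle checkpoint and kinetochore proteins, spindle motors, cytokinesis factors, anaphase regulators, the DNA topoisomerase TOP2A and the proliferation antigen MKI67. They were chosen by symbol, and each of the 36 was found once among the 55765 gene symbols of both count tables. RNA was sequenced from OVCAR3 cells, an established human line of high-grade serous ovarian cancer grown in medium with 2% fetal bovine serum. In the first series the cells received 0.5 µg/ml of non-specific IgA, the same dose of non-specific IgG, or no antibody. In the second series they received 0.5 µg/ml of an IgA against BDNF, the same dose of an IgA against TSPAN7, or no antibody. Exposure lasted 24 h by the labels, each of the 6 groups had 3 libraries, and groups were compared only within a series. A shorter exposure is named in other captions of the study, and the labels are followed here. The non-specific antibodies were natural human immunoglobulins, and the methods describe antigen-specific IgA taken from immortalised B cell clones of ovarian tumours. All 18 libraries are of 1 cell line, and the labels do not say whether replicates were separate cultures. A caption of the study counts the replicates of the first series as experiments, and its statistics section speaks in general of biological replicates or separate experiments. The p-values measure the spread between these libraries.

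Cells enter mitosis when cyclin B bound to CDK1 becomes active, a step that PLK1 and the Aurora kinases promote. Kinetochores then tie chromosomes to the spindle, the spindle checkpoint holds anaphase back until every chromosome is attached, and the anaphase-promoting complex with CDC20 releases the chromosomes by destroying securin and cyclin B. Most of these genes are transcribed in a wave in G2 under FOXM1, B-MYB and the DREAM complex, which bind a promoter element called the cell cycle genes homology region (CHR) and work with NF-Y on CCAAT boxes. In a growing culture their mRNA level follows both the number of cells in G2 and mitosis and the mRNA per cell, which bulk libraries cannot tell apart.

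Promoter sequence from RefSeq (GRCh38.p14) was at hand for 30 of the 36 genes, all but FOXM1, AURKA, TTK, TPX2, BIRC5 and UBE2C. The letters TTTGAA or TTCGAA of a CHR, read on both strands from 250 bases before to 50 bases after the start of transcription, occurred in 22 of the 30, or 73.3%, against 16.6% of all 27305 promoters of that length. A CCAAT box, again on either strand, occurred in 76.7% of them and in 35.7% of all promoters, and both occurred together in 60% against 6.58%. In a list of DNA replication and S phase genes, which peak earlier in the cycle, 9.3% of 43 promoters had the CHR letters and 55.8% a CCAAT box. The 120 bases before the start are shown for 8 genes named in the comparisons. The bases are in lower case with the CHR and CCAAT letters of either strand in capitals. On the opposite strand these letters read TTCAAA or TTCGAA and ATTGG. All 8 hold the CHR letters, against 73.3% of the 30, so they are not a sample of the module. In HMMR and MKI67 neighbouring matches share bases and run together.
PLK1 chr16:23678769-23678888 (plus strand): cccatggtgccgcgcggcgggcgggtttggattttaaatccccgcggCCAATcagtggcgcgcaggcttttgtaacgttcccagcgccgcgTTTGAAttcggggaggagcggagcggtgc
CENPA chr2:26785936-26786055 (plus strand): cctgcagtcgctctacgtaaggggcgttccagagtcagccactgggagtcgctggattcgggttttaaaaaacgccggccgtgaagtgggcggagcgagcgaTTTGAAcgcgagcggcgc
HMMR chr5:163460512-163460631 (plus strand): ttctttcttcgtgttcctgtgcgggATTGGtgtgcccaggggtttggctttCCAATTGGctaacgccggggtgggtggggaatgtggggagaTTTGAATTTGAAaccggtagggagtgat
MKI67 chr10:128126424-128126543 (minus strand): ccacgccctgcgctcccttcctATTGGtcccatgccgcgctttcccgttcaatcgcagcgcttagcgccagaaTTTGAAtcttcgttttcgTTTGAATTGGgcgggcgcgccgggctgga
CDC20 chr1:43358861-43358980 (plus strand): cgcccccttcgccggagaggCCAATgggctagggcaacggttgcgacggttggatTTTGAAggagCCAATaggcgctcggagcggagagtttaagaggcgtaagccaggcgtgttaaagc
ANLN chr7:36389742-36389861 (plus strand): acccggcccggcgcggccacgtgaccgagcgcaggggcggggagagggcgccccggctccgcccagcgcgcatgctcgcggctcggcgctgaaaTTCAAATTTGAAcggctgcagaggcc
KIF11 chr10:92593010-92593129 (plus strand): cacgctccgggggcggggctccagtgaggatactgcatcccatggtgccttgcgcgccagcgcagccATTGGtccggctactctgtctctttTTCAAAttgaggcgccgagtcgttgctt
PRC1 chr15:90994536-90994655 (minus strand): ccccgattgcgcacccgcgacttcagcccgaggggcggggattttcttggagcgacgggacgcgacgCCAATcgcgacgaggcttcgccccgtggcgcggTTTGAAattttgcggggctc
KIF11 and PRC1 are set together because they moved in opposite directions with non-specific IgA; both have 1 CHR match 28 and 20 bases before the start and 1 CCAAT box 53 bases before it. CENPE, KIF2C and CDC25C had neither set of letters in the 300-base window, which describes the window and not the factors that act on these genes. CENPE and KIF2C were nevertheless called in comparisons below.

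**Figure D1:**
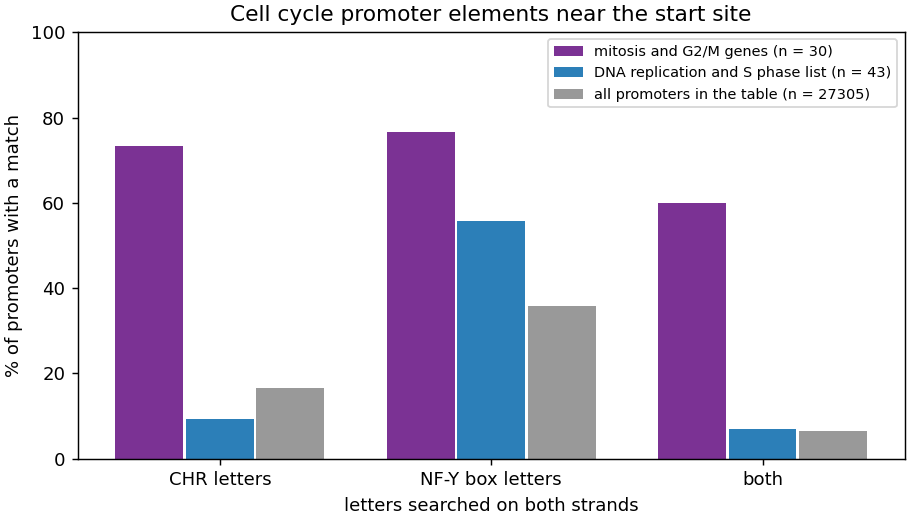
Share of promoters (percent, 250 bases before to 50 after the start) with the CHR letters, with the CCAAT box bound by NF-Y, and with both, for 30 mitosis and G2/M genes, 43 DNA replication and S phase genes and all 27305 promoters. The mitosis and G2/M bars stand at 73.3%, 76.7% and 60%, against 16.6%, 35.7% and 6.58% over all promoters.

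The 9 libraries of the first series held 27920733 to 42371474 counts each and those of the second 39254350 to 47381836, of which the 36 genes together took 0.462% to 0.661%. Each member had at least 191 counts in every library, the lowest being CDC25C, so all 36 passed the filter on low counts in both series. Mitochondrially encoded genes took 19.1% of counts in replicate 3 of the non-specific IgA group and 5.75% to 10.2% in the other 17 libraries. All 10 epithelial and serous carcinoma markers were detected, whereas the 8 leukocyte markers summed to at most 75.1 normalised counts in any library. Of 7 fibroblast and endothelial markers measured, 3 stayed under 10 counts in all 9 libraries of either series, and the summed level of the 7 reached 4889 normalised counts in 1 non-specific IgA library, against 2076 to 2466 in the IgG and untreated libraries of that series; their part in the results was not tested. Whether reads were assigned by strand is not given in the sources used here, and CCNA2, CDC25C, FOXM1, CENPA, KIF20A, KIF4A, NUSAP1, BUB1B, ANLN, NUF2 and PRC1 overlap other genes, so their counts may include or lose reads of a neighbour.

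In untreated cells of the first series, PTTG1, which encodes the securin that guards sister chromatid cohesion, had the highest level per length, 6034 normalised counts per kilobase of transcript, followed by the microtubule bundling protein NUSAP1 at 2979. The phosphatase CDC25C, which switches CDK1 on, was the lowest of the 36 at 218 per kilobase. The neighbours MKI67, TPX2, CCNB2 and TOP2A, at 2542, 2514, 2448 and 2389 per kilobase, were close enough that their order lay within the spread of replicates. In the second series PTTG1 and CDC25C again stood at the ends, at 5855 and 247 per kilobase.

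Replicates differed least in the second series. The median over the 36 genes of the coefficient of variation between 3 libraries was 3.01% in untreated cells, 3.79% with TSPAN7 IgA and 5.79% with BDNF IgA, and in the first series 7.68% in untreated cells, 6.65% with IgG and 13.5% with non-specific IgA. Set against the mean of the untreated libraries of its series, the median gene stood at -0.11, 0.013 and -0.12 (log2) in the 3 non-specific IgA libraries, at -0.15, -0.065 and -0.24 with BDNF IgA and at -0.044, 0.039 and -0.013 with TSPAN7 IgA. Replicate 3 of the first untreated group stood at -0.12 and replicate 3 of the IgG group at -0.13, as low as the IgA libraries, so the module as a whole did not separate the groups of that series.

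**Figure D2:**
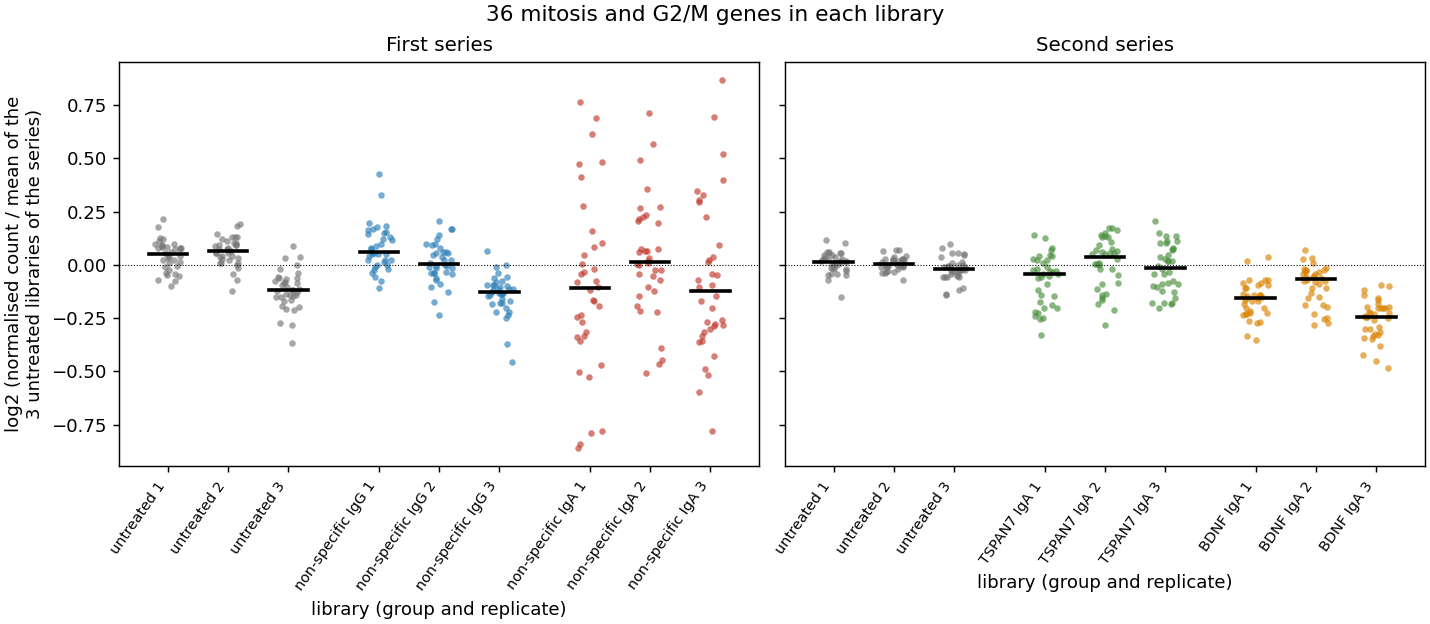
Log2 ratio of each gene's normalised count to the mean of the 3 untreated libraries of its series (vertical axis) in each of the 18 libraries (horizontal axis). Points are the 36 genes and black bars their median: the non-specific IgA libraries had medians of -0.11, 0.013 and -0.12 with genes from -0.86 to 0.87, and the BDNF IgA libraries medians of -0.15, -0.065 and -0.24 with genes from -0.49 to 0.071.

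The comparison of non-specific IgA with IgG asks what IgA does beyond adding an antibody. The mitotic genes split: 4 rose, 6 fell and 26 were not called, with a median difference of -0.027 on the log2 scale, and 24.2% of all 18012 genes tested were called (12.6% higher, 11.6% lower), so the share of 10 among 36 is near that background. Calls here and below rest on edgeR's quasi-likelihood test, at p-values under 0.05 after Benjamini-Hochberg adjustment over all genes, and values after ± are standard errors unless SD is written. The mitotic kinesins KIF11, KIF23 and KIF20A, the outer kinetochore proteins NDC80 and CENPE and the spindle pole protein ASPM fell, and the cytokinesis factors PRC1 and ANLN, the depolymerising kinesin KIF2C and the ubiquitin-conjugating enzyme UBE2C rose.

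KIF11 (chr10:94333862-94415152, plus strand, GRCh37) encodes the kinesin that pushes the spindle poles apart. It had 3137, 3786 and 3139 normalised counts in the 3 IgA libraries, 5172, 5236 and 4919 with IgG and 5344, 5746 and 5071 in untreated cells. Every IgA library lay below the 6 others, and expression fell by 34.3% against IgG, a log2 fold change of -0.61 ± 0.10 (adjusted p = 0.00126).

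ASPM, which focuses spindle poles, gave 5956, 8153 and 7944 with IgA, 10840.5, 10411 and 9881 with IgG and 10774, 11003 and 10251 without antibody, and fell by 29.2% against IgG (-0.50 ± 0.12, adjusted p = 0.0085). NDC80, the microtubule-binding subunit of the outer kinetochore, gave 1144, 1503 and 1479 against 1971, 1933 and 1781 with IgG, a log2 fold change of -0.46 ± 0.12 (adjusted p = 0.0145). CENPE, the kinetochore kinesin that carries chromosomes to the spindle equator, gave 3676, 4662 and 5151 against 6294, 5803 and 5875, at -0.41 ± 0.12 (adjusted p = 0.0232). In each of these 3 genes the highest IgA library lay below the lowest library of the 6 others.

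KIF23, a motor of the central spindle, had 4895, 5969 and 4843 normalised counts with IgA and 6929, 6772 and 6577 with IgG (-0.37 ± 0.10, adjusted p = 0.0189). KIF20A, the kinesin that brings PLK1 and the passenger complex to the midzone, had 2579.9, 3091 and 2583 with IgA, 3639, 3605 and 3209 with IgG and 3259, 3408 and 2957 in untreated cells. Its IgA libraries lay below those with IgG but overlapped the untreated ones, so that it was called against IgG (-0.34 ± 0.11, adjusted p = 0.0347) and not against untreated cells (-0.22 ± 0.11, adjusted p = 0.15).

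PRC1 (chr15:91509270-91538859, minus strand, GRCh37), which bundles antiparallel microtubules in the central spindle, had 3104, 2855 and 3693 normalised counts with IgA, 2254, 2169.7 and 1898 with IgG and 2159, 2175 and 1749 in untreated cells. All 3 IgA libraries lay above the 6 others, and expression was 52.6% higher than with IgG (0.61 ± 0.13, adjusted p = 0.00434). ANLN, the scaffold of the contractile ring, had 9241, 12511 and 12329 with IgA, 9571, 7961 and 5902 with IgG and 8241, 8354 and 6277 in untreated cells. Here 1 IgG library reached into the IgA range, and the difference of 0.54 ± 0.17 (adjusted p = 0.0384) was called.

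KIF2C, which depolymerises microtubules to correct wrong attachments, had 1876, 1614 and 1924 with IgA and 1504, 1374 and 1214 with IgG, at 0.40 ± 0.12 (adjusted p = 0.0269). UBE2C, the partner enzyme of the anaphase-promoting complex, had 2587, 1849.7 and 2012 against 1631, 1716 and 1415, at 0.44 ± 0.13 (adjusted p = 0.029). In both genes the IgA libraries lay above those with IgG without overlap. Over all 18012 genes 19.7% had 3 IgA libraries above the 3 IgG libraries and 20.6% had them below; of the 36 mitotic genes 3 lay above and 8 below.

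The genes of mitotic entry were not called. CCNB1, the cyclin B that drives entry, had 3509, 4487 and 3654 with IgA, 4798, 4878 and 3731 with IgG and 4582, 4611 and 4103 in untreated cells, overlapping groups with a difference of -0.20 ± 0.13 (adjusted p = 0.264) against IgG. CDK1, its kinase, had 4654, 5323 and 3966 with IgA and 4599, 4339 and 3708 with IgG (0.14 ± 0.12, adjusted p = 0.439). FOXM1, the transcription factor of the G2 wave, had 5774, 6237 and 4419.9 with IgA and 5558, 5410.0 and 5143 with IgG, and its lowest and highest values over the first series were both in the IgA group.

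The kinase PLK1 spanned 3054, 2679 and 1879.8 with IgA, wider than the 2543, 2580.3 and 2120.2 with IgG, and was not called (0.073 ± 0.15, adjusted p = 0.763). AURKB, the kinase of the passenger complex, had 1030.4, 619.6 and 709 with IgA and 644, 538 and 520.4 with IgG, and its difference of 0.47 ± 0.18 (adjusted p = 0.067) missed the threshold. The checkpoint kinase BUB1 had 3327, 4224 and 3385 with IgA and 3958, 3638 and 3093 with IgG. The 3 checkpoint genes BUB1, BUB1B and TTK all overlapped between the groups and lay between -0.20 and 0.065.

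CDC20, the activator of the anaphase-promoting complex, had 3072, 3273 and 2734 with IgA, 2969.8, 2551 and 1611 with IgG and 2498, 2421 and 1716 in untreated cells. The IgG and untreated groups each held a low library, and the difference of 0.35 ± 0.20 (adjusted p = 0.213) against IgG was not called. CENPF, a large kinetochore protein of G2 cells, had 15407, 19027 and 22382 with IgA and 22166, 21220.3 and 22039.7 with IgG. Of the IgA libraries only replicate 3 reached the level of the IgG libraries for CENPF, and the difference was not called (-0.20 ± 0.12, adjusted p = 0.243).

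TOP2A, which untangles chromosomes before anaphase, had 12149.5, 15570.0 and 17899 with IgA and 14346, 13448 and 12673 with IgG. MKI67, the antigen read by Ki-67 staining, had 27239.9, 31799.6 and 41058 with IgA, 33236, 33371 and 28894 with IgG and 31220.4, 33881 and 31867 in untreated cells. For both genes the highest of the 9 libraries was IgA replicate 3, the library with 19.1% mitochondrial counts, and neither was called; the part of that share was not tested. MKI67 differed by 0.068 ± 0.14 (adjusted p = 0.755), and by -0.11 without that library.

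Without IgA replicate 3 the count against IgG was again 10 of 36, with ANLN and KIF20A lost and AURKB and CENPF gained. Leaving out other libraries gave 3 to 12 called genes, beside 13.8% to 28.5% of all genes. There were 5 without IgA replicate 1 (20% of all genes) and 5 without IgG replicate 1 (17.2%). There were 3 without IgG replicate 2 (14.1%) and 6 without IgG replicate 3 (13.8%). KIF11 was called under all 22 alternatives to the processing, and PRC1 and ASPM under 21. RLE scaling called the same 10 genes and DESeq2 these with AURKB, and upper-quartile scaling called 3 higher and 7 lower, without ANLN and with HMMR. With library size alone, which leaves out any scaling for composition, 0 genes were higher and 9 lower, PRC1, ANLN, KIF2C and UBE2C no longer being called, while the median of all genes moved to -0.25 and that of the 36 genes to -0.26.

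Against untreated cells of the first series, 4 of the genes rose with non-specific IgA and 5 fell, with the IgA libraries shared by both comparisons; 25% of all genes tested were called (12.9% higher, 12.1% lower), and the median of the 36 genes was -0.063. KIF11 fell by 37.7% (-0.68 ± 0.10, adjusted p = 5.10e-04). NDC80 differed by -0.59 ± 0.12 (adjusted p = 0.00363), ASPM by -0.54 ± 0.12 (adjusted p = 0.0053), CENPE by -0.50 ± 0.12 (adjusted p = 0.00923) and KIF23 by -0.40 ± 0.10 (adjusted p = 0.0118). In 5 genes all IgA libraries lay above the untreated ones and in 7 below, against 19.8% and 20.1% of all genes.

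PRC1 rose by 58.6% (0.67 ± 0.13, adjusted p = 0.00242), ANLN by 49% (0.58 ± 0.17, adjusted p = 0.0285), KIF2C by 34.6% (0.43 ± 0.12, adjusted p = 0.0197) and UBE2C by 34% (0.42 ± 0.13, adjusted p = 0.0327). CCNB1 (-0.19 ± 0.13), CDK1 (0.16 ± 0.12) and MKI67 (0.046 ± 0.14) were not called. KIF11, NDC80, ASPM and PRC1 were called under all 22 alternatives. Without untreated replicate 1 or IgA replicate 1 the count of higher genes dropped to 2, and without untreated replicate 2 or 3 to 1. The count of lower genes went to 8 without IgA replicate 2. In these fits 14% to 28.2% of all genes were called. Library size alone gave 1 higher and 9 lower, with the median of all genes at -0.22 and that of the 36 at -0.27.

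Between non-specific IgG and untreated cells 0 of the 36 genes were called. The 36 log2 fold changes ran from -0.15 for PTTG1 to 0.12 for KIF20A, and in 0 of the 36 genes did the 3 IgG libraries lie apart from the untreated ones, where 3.32% of all genes had them above and 3.43% below. Over all 18012 genes 0% were called by edgeR in this comparison and 89, or 0.494%, had an unadjusted p under 0.05; the count of members was 0 under all 22 alternatives, DESeq2 included. A threshold of 0.05 lets through that share of genes when none differ, and 0.494% is lower, so the p-values ran high here. The standard errors of these differences, from 0.088 to 0.19, come from the fit of all 9 libraries. That fit includes the more variable non-specific IgA libraries, so they do not measure what the IgG and untreated libraries alone could show. Fitting only the 6 libraries compared also called 0 of all genes.

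**Figure D3:**
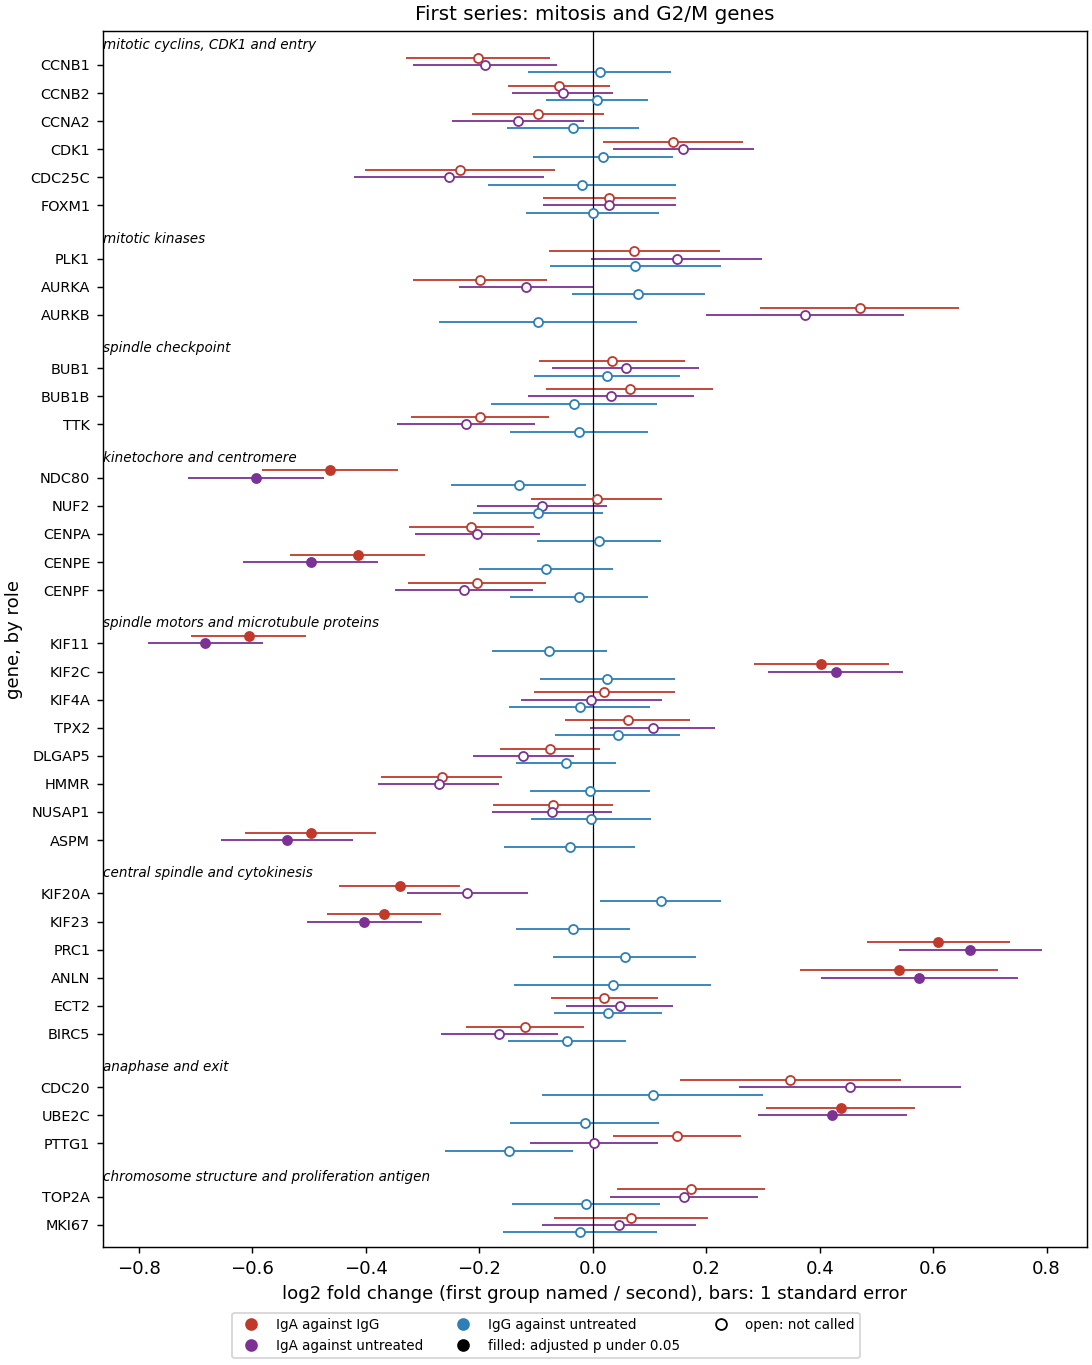
Log2 fold change with 1 standard error (horizontal axis) of each of the 36 genes, ordered by role (vertical axis), for IgA against IgG, IgA against untreated and IgG against untreated cells. Filled points passed an adjusted p under 0.05: KIF11 lies farthest to the left (-0.61 and -0.68), PRC1 farthest to the right (0.61 and 0.67), and all IgG points are open.

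By role, the falls with non-specific IgA against IgG lay in kinetochores (NDC80 and CENPE, 2 of 5), spindle motors and microtubule proteins (KIF11 and ASPM, 2 of 8) and the central spindle (KIF20A and KIF23, 2 of 6). The rises lay in the central spindle (PRC1 and ANLN), the spindle motors (KIF2C) and anaphase (UBE2C, 1 of 3). The 6 genes of entry, the 3 mitotic kinases, the 3 checkpoint genes, TOP2A and MKI67 had none. Over all genes tested 11.6% were called lower and 12.6% higher, so counts in roles of at most 8 genes do not set the roles apart. Across the 36 genes the log2 fold change against IgG correlated with transcript GC content (Pearson's r = 0.45; a description across genes that share the same libraries), against r = -0.078 over 15424 genes. With an offset for GC content and transcript length, 11 genes were called, 9 of them among the 10 above; UBE2C was lost, CENPA and HMMR were gained on the lower side, and the median of the 36 genes moved to -0.13.

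Other parts of the cell cycle program were read from gene lists. Of 29 other spindle and cytokinesis genes 2 rose and 9 fell against IgG, among them FAM83D, which aligns chromosomes (-0.60 ± 0.15, adjusted p = 0.012), and of 40 other checkpoint and kinetochore genes 1 rose and 2 fell, with SPC24, a partner of NDC80, at -0.66 ± 0.11 (adjusted p = 0.00121). Among 19 CDK inhibitors and genes that restrain G2, 8 rose and 2 fell, the largest being GADD45B (2.01 ± 0.21, adjusted p = 5.25e-05), CDKN1A and GADD45A (1.76 ± 0.18, adjusted p = 4.09e-05). CDKN1A, which encodes the CDK inhibitor p21, had 319.7 ± 84.1 normalised counts with IgA and 80.2 ± 20.5 with IgG (SD, n = 3 each), a log2 fold change of 1.99 ± 0.26 (adjusted p = 2.09e-04) in edgeR across all genes.

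WEE1, the kinase that holds CDK1 inactive, was not called (0.13 ± 0.10, adjusted p = 0.408). The 51 DNA replication genes had 2 rises and 2 falls, and the 16 genes of the DREAM and B-MYB complexes 1 rise. Of 15 G1 cyclins, CDKs and E2F factors 4 rose, CCND1 among them (0.84), and 4 fell, among them E2F8 (-1.11). Of the marker lists, 2 of 4 fibroblast and endothelial genes that passed the filter rose, COL1A1 and COL1A2, and 2 of 10 epithelial and serous markers rose and 2 fell; their part in the changes was not tested. In all, 7.84% of the replication list and 53.3% of the G1 list were called, beside 27.8% of the 36 mitotic genes and 24.2% of all genes.

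In the second series, IgA against BDNF, a secreted neurotrophin, was set against untreated cells to ask what changes with an antigen-specific IgA. That series held no non-specific IgA or IgG, so this comparison cannot tell the part of the antigen from that of adding an antibody. Here the mitotic genes went one way: 14 of 36 fell and 0 rose, where 7.67% of the 18732 genes tested were called, 3.18% lower and 4.49% higher. Of the 36 log2 fold changes 35 were below 0, with a median of -0.15 against 0.0022 over all genes. The changes were small, from -0.35 for AURKA to 0.0035 for FOXM1. Against a log2 change of 0.26, 0 of the 36 genes passed a test, where 0.763% of all genes did. All 36 values come from the same 6 libraries and are not 36 separate observations.

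AURKA (chr20:54944445-54967393, minus strand, GRCh37), the kinase of centrosomes and spindle poles, had 3471, 3784 and 3168 normalised counts with BDNF IgA and 4307, 4419 and 4581 in untreated cells. The groups did not overlap, and expression fell by 21.7% (-0.35 ± 0.055, adjusted p = 3.00e-04). CENPE had 6045, 6050.0 and 5336 against 7537, 7335 and 7022 and fell by 20.4% (-0.33 ± 0.053, adjusted p = 4.22e-04). HMMR, a spindle assembly factor, had 4509, 4340.0 and 4189 against 5224, 5351 and 5250.2, at -0.28 ± 0.048 (adjusted p = 8.28e-04). The highest BDNF IgA library of CENPE and of HMMR lay well below the lowest untreated one.

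CENPA, the histone variant that marks centromeres, had 932, 1031 and 935 against 1117, 1233 and 1175 (-0.28 ± 0.070, adjusted p = 0.0149). MKI67 had 43373, 44577 and 38130.0 against 54853, 51977 and 46379.6 (-0.28 ± 0.065, adjusted p = 0.00898), with untreated replicate 3 closest to the treated libraries. PLK1 had 3161, 3338 and 2854 against 3789.7, 3901 and 3446 (-0.25 ± 0.059, adjusted p = 0.0101). None of these 3 genes overlapped between the groups, and replicate 3 of the BDNF IgA group was the lowest library for PLK1 and MKI67.

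KIF20A had 4367, 4418 and 3980.3 with BDNF IgA and 4944, 4875 and 4913 without (-0.21 ± 0.048, adjusted p = 0.00929). CENPF had 27403, 26502 and 25231 against 31178, 30147 and 29349 (-0.20 ± 0.046, adjusted p = 0.00968). ASPM fell by 16.3% (-0.26 ± 0.041, adjusted p = 3.62e-04), and PTTG1, ANLN, BUB1B, CCNA2 and BIRC5 fell with log2 fold changes of -0.21, -0.20, -0.20, -0.19 and -0.18. The PTTG1 groups overlapped in 1 library of each, and its call ended with offsets for GC content and length (-0.16, adjusted p = 0.0724), as that of ANLN did with library size alone (-0.19, adjusted p = 0.0516). BUB1B is a kinetochore pseudokinase of the checkpoint, CCNA2 the cyclin of S phase and G2, and BIRC5 the survivin subunit of the passenger complex. Every role had at least 1 gene that fell: 1 of 6 in mitotic entry, 2 of 3 kinases, 1 of 3 checkpoint genes, 3 of 5 kinetochore genes, 2 of 8 spindle genes, 3 of 6 of the central spindle, 1 of 3 in anaphase and MKI67.

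Of the genes not called, CCNB1 had 5560.5, 5680.5 and 5126 with BDNF IgA and 5896, 5945 and 5855 without, separate groups with a difference of -0.11 ± 0.046 (adjusted p = 0.144). BUB1 had 3733, 3919 and 3437 against 4009, 4051 and 3804, and CDC20 had 3303, 3614 and 2918 against 3772, 3747 and 3578 (-0.17 ± 0.058, adjusted p = 0.0718). TOP2A had 23274, 25753 and 22385 against 26136, 26657 and 25641 (-0.14 ± 0.051, adjusted p = 0.109). In BUB1, CDC20 and TOP2A 1 BDNF IgA library, replicate 2, reached into the untreated range.

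FOXM1 had 6466, 6628 and 5889 with BDNF IgA and 6308, 6425 and 6203 in untreated cells, a difference of 0.0035 ± 0.046 (adjusted p = 0.978), and CDK1 differed by -0.068 ± 0.051 (adjusted p = 0.473). The interval of 2 standard errors around the FOXM1 difference ran from -0.09 to 0.10. All 3 BDNF IgA libraries lay below the 3 untreated ones in 23 of the 36 genes and above in 0, against 12% and 12.8% of all genes.

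The number of falls moved with single libraries, and so did the share of all genes called, 7.67% with all 9 libraries. There were 27 falls without BDNF IgA replicate 2, whose median over the 36 genes was closest to untreated cells, beside 14.6% of all genes. Without BDNF IgA replicate 3, whose median was the lowest, there were 4 beside 3.83%. Without BDNF IgA replicate 1 there were 9 beside 4.39%. Leaving out untreated replicate 1 gave 7 beside 4.64%, and untreated replicate 2 gave 9 beside 4.2%. AURKA, CENPE, HMMR and ASPM were called without any 1 of the 9 libraries, and 35 or 36 of the 36 fold changes were below 0 under every one of the 22 alternatives.

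IgA against TSPAN7, a cell-surface tetraspanin, was set against the same untreated libraries. Here 6 genes fell and 0 rose, where 8.54% of all genes were called, 4.08% lower and 4.46% higher, and the median of the 36 genes was -0.0036. The 6 were CENPE (-0.24 ± 0.053, adjusted p = 0.00603), PTTG1 (-0.22 ± 0.057, adjusted p = 0.0165), AURKA, CENPF, HMMR and ASPM. The BDNF and TSPAN7 comparisons share the untreated libraries, so their calls are not separate evidence.

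CENPE had 5808, 6304 and 6444 normalised counts with TSPAN7 IgA, all below the 7537, 7335 and 7022 of untreated cells. AURKA had 3761, 4020.0 and 3859.6 (-0.19 ± 0.055, adjusted p = 0.0304), and CENPF 25388, 27159.6 and 27771 (-0.17 ± 0.046, adjusted p = 0.0185). HMMR, with 4429, 4702 and 5004, differed by -0.16 ± 0.048 (adjusted p = 0.0376), and ASPM by -0.16 ± 0.041 (adjusted p = 0.0181). In all 6 genes the TSPAN7 IgA libraries lay below the untreated ones. Over the 36 genes this held for 9 and the reverse for 5, against 14% and 14.4% of all genes.

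The other 30 genes were not called. CCNB1 had 5726, 6113 and 5978 with TSPAN7 IgA (0.0099 ± 0.046, adjusted p = 0.935), PLK1 3828, 3779 and 3490.4 (-0.0046 ± 0.059, adjusted p = 0.976) and BUB1 3982, 4113 and 4005 (0.028 ± 0.050, adjusted p = 0.801). CDC20 had 4036, 4060.0 and 3997, above all 3 untreated libraries but not called (0.12 ± 0.058, adjusted p = 0.209). KIF20A had 4309, 4634 and 4324, below all 3 untreated libraries and just outside the threshold (-0.15 ± 0.048, adjusted p = 0.0537).

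TOP2A had 26547, 29326 and 28715 (0.11 ± 0.051, adjusted p = 0.208), MKI67 43878, 51424 and 48222 (-0.094 ± 0.065, adjusted p = 0.429) and FOXM1 6671, 6616 and 6482 (0.062 ± 0.046, adjusted p = 0.471), none called. CENPE was called without any 1 of the 9 libraries. The count of falls was 2 without TSPAN7 IgA replicate 1 or 2 and 4 without replicate 3. It was 2 without untreated replicate 1 or 3 and 1 without untreated replicate 2. In these fits 3.95% to 7.15% of all genes were called, against 8.54% with all 9 libraries. KIF2C rose when untreated replicate 1 was left out. A test against a log2 change of 0.26 gave 0 of the 36, where 1.07% of all genes passed.

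Set directly against each other, the antigen-specific IgAs differed in this module. With TSPAN7 IgA 11 of the 36 genes were higher than with BDNF IgA and 0 were lower, where 7.92% of all genes were called, 3.42% higher and 4.5% lower, and 33 of the 36 fold changes were above 0 with a median of 0.14. The BDNF IgA libraries are shared with the comparison above. In all 11 the TSPAN7 IgA libraries lay above those with BDNF IgA. Over the 36 genes this held for 18 and the reverse for 0, against 11.5% and 12.1% of all genes.

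CDC20 (chr1:43824652-43828874, plus strand, GRCh37) had 4036, 4060.0 and 3997 normalised counts with TSPAN7 IgA and 3303, 3614 and 2918 with BDNF IgA, 23% higher (0.30 ± 0.058, adjusted p = 0.00284). ANLN had 11775, 13071 and 12262 against 9665, 11257 and 9309 (0.30 ± 0.057, adjusted p = 0.0028), and TOP2A 26547, 29326 and 28715 against 23274, 25753 and 22385 (0.24 ± 0.051, adjusted p = 0.0047). KIF2C had 1902, 1888 and 1986 against 1639, 1656 and 1505 (0.27 ± 0.061, adjusted p = 0.00898). In KIF2C the lowest TSPAN7 IgA library was above the highest BDNF IgA library by more than the range of either group.

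PRC1 had 4102, 4382 and 4271 against 3578, 3914 and 3349 (0.23 ± 0.052, adjusted p = 0.0077) and PLK1 was 18.7% higher (0.25 ± 0.059, adjusted p = 0.0125). BUB1B, the spindle assembly factor TPX2, CDK1, the cytokinesis exchange factor ECT2 and NUSAP1 were 15.4%, 14.9%, 13.4%, 12.6% and 11.3% higher. CCNB1 (0.12 ± 0.046, adjusted p = 0.109), MKI67 (0.19 ± 0.065, adjusted p = 0.0814), BUB1 (0.13 ± 0.050, adjusted p = 0.13), FOXM1 (0.059 ± 0.046, adjusted p = 0.498) and KIF20A (0.056 ± 0.048, adjusted p = 0.545) were not called. With offsets for GC content and length CDK1 (0.11, adjusted p = 0.117) and ECT2 (0.13, adjusted p = 0.067) were no longer called, and KIF4A and MKI67 (0.22, adjusted p = 0.0366) were; library size alone ended the calls of ECT2 and NUSAP1. CENPF, which fell against untreated cells with both antibodies, differed between them by 0.021 ± 0.046 (adjusted p = 0.838).

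These counts too moved with single libraries. There were 23 higher genes without BDNF IgA replicate 2, beside 17.1% of all genes called, against 7.92% with all 9 libraries. Without BDNF IgA replicate 3 there were 3 beside 2.52%, and without BDNF IgA replicate 1 there were 6 beside 3.28%. Leaving out TSPAN7 IgA replicate 2 gave 4 beside 2.63%, and TSPAN7 IgA replicate 3 gave 5 beside 4.16%. ANLN and CDC20 were called without any 1 of the 9 libraries. Against a log2 difference of 0.26, 0 of the 36 genes passed a test, where 0.71% of all genes did.

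**Figure D4:**
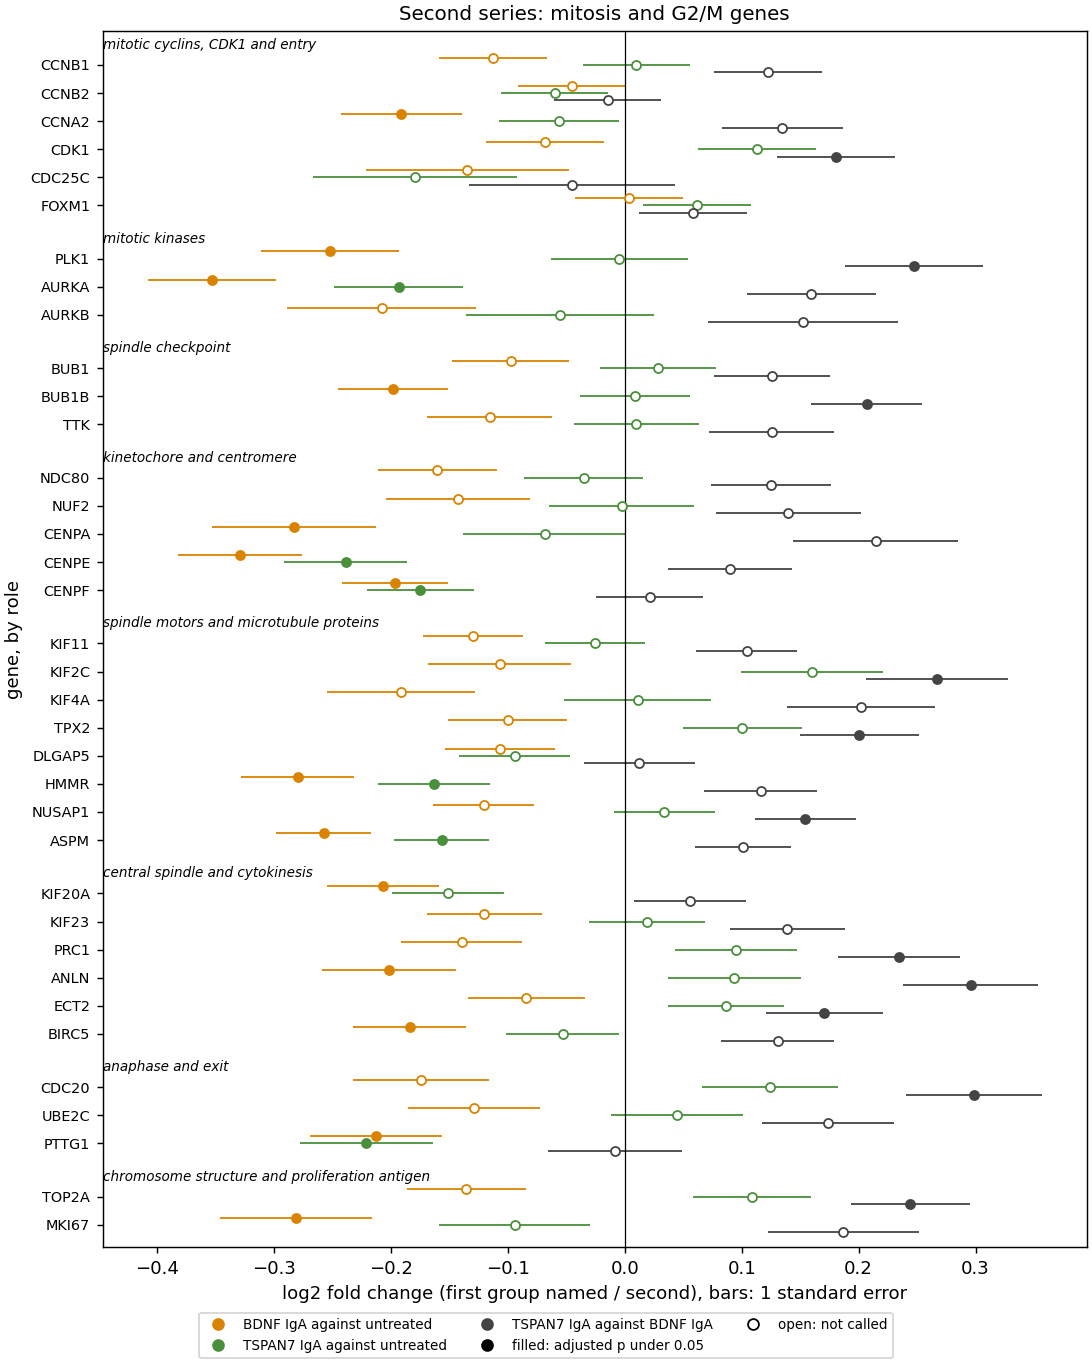
Log2 fold change with 1 standard error (horizontal axis) of each of the 36 genes, ordered by role (vertical axis), for BDNF IgA against untreated, TSPAN7 IgA against untreated and TSPAN7 IgA against BDNF IgA. Filled points passed an adjusted p under 0.05: 14 BDNF IgA points lie to the left of 0, 6 TSPAN7 IgA points do, and 11 points of the direct comparison lie to the right.

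Other cell cycle lists were read beside the module. With BDNF IgA, beside 3.18% of all genes lower and 4.49% higher, 8 of 29 other spindle and cytokinesis genes fell and 0 rose, 5 of 40 other checkpoint and kinetochore genes fell and 0 rose, and 4 of 21 condensin and cohesin genes fell. Examples were the kinetochore protein SPC24 (-0.28 ± 0.055, adjusted p = 0.00299) and HJURP, which loads CENPA (-0.25 ± 0.049, adjusted p = 0.00273). Of 51 DNA replication genes 9 fell, 45 of the 51 fold changes being below 0. Among 19 CDK inhibitors and genes that restrain G2, 3 rose, GADD45A the most (0.35 ± 0.071, adjusted p = 0.00329), and CDKN2C fell (-0.55 ± 0.067, adjusted p = 1.68e-05).

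CDKN1A stood at 135 ± 11.1 normalised counts with BDNF IgA, 128 ± 1.44 with TSPAN7 IgA and 127 ± 2.02 in untreated cells (SD, n = 3 each), and was not called in edgeR (adjusted p = 0.744 and 0.969). WEE1 was not called with either antibody (0.02 ± 0.055, adjusted p = 0.875, and 0.086 ± 0.055, adjusted p = 0.384). With TSPAN7 IgA, beside 4.46% of all genes higher and 4.08% lower, 5 of 15 G1 cyclins, CDKs and E2F factors rose and 0 fell, CCND1 the most (0.40 ± 0.056, adjusted p = 7.00e-05), while 2 of 51 replication genes rose. Of the 19 CDK inhibitors and genes that restrain G2, 5 rose with TSPAN7 IgA, GADD45B the most (0.51 ± 0.095, adjusted p = 0.00138), and 2 fell. In the direct comparison, beside 3.42% of all genes higher, all 51 replication genes were higher with TSPAN7 than with BDNF IgA and 21 were called, among them the histone chaperone ASF1B (0.40 ± 0.062, adjusted p = 4.07e-04). Markers of the serous line moved too: of 10, 4 rose and 0 fell with BDNF IgA, 1 rose and 3 fell with TSPAN7 IgA, and 1 was higher and 5 lower with TSPAN7 than with BDNF IgA, MUC16 the most (-0.66 ± 0.076, adjusted p = 3.05e-05). Of the 2 leukocyte markers that passed the filter, PTPRC rose with TSPAN7 IgA (1.39 ± 0.43, adjusted p = 0.0487), from 7.4 ± 1.5 to 19.7 ± 7.77 normalised counts (SD, n = 3 each); the part of these markers in the mitotic changes was not tested.

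**Figure D5:**
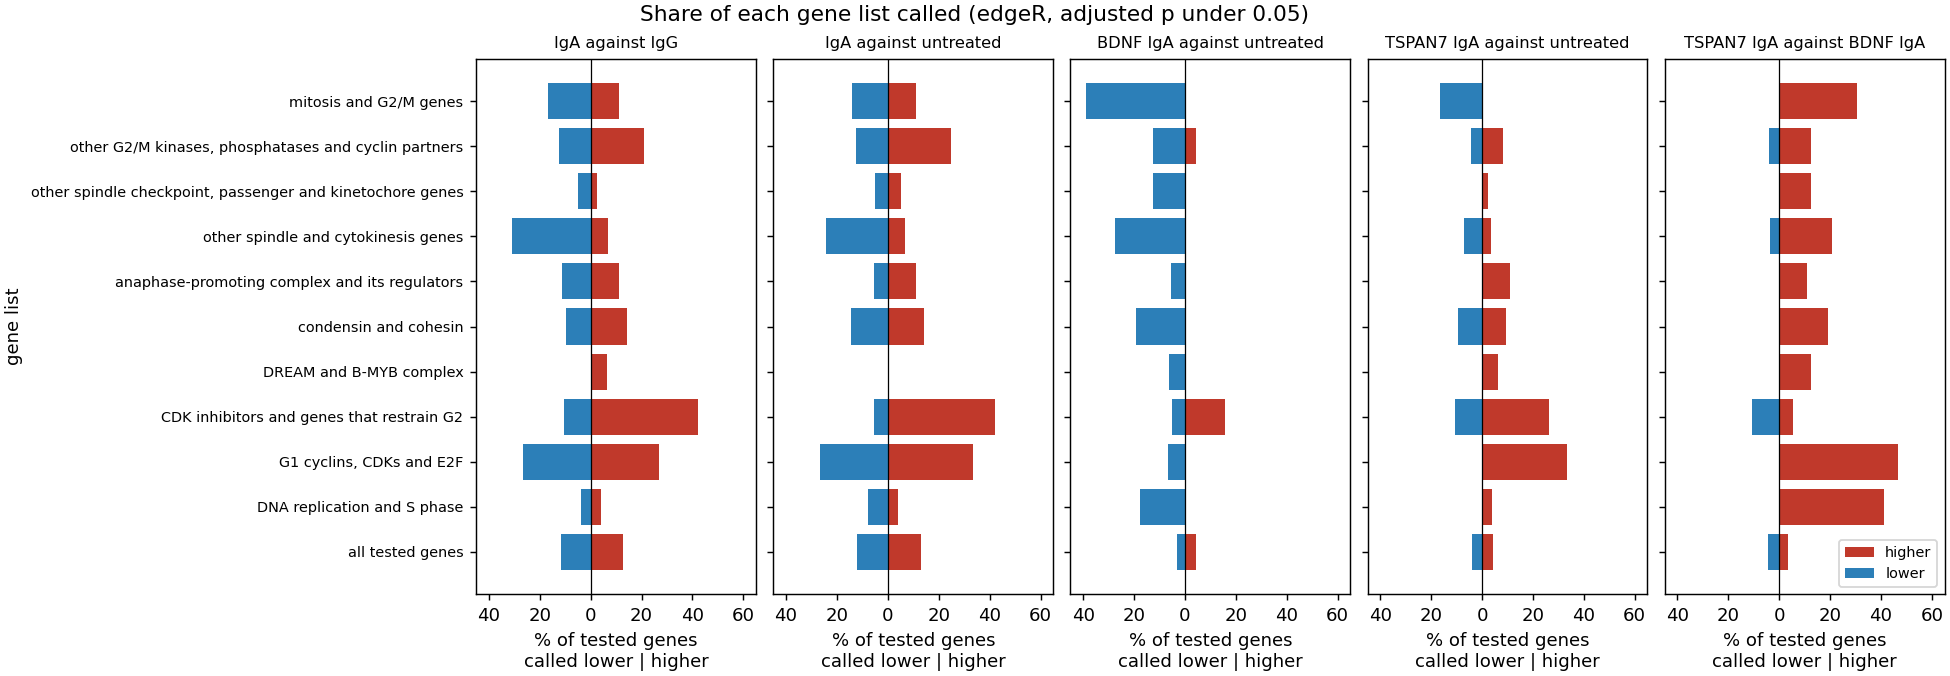
Percent of the tested genes of 10 gene lists and of all tested genes (bottom bar) called lower (left of 0) or higher (right of 0) in 5 comparisons, at an adjusted p under 0.05 in edgeR. The 36 mitosis and G2/M genes (top bar) show both directions with non-specific IgA, 38.9% lower with BDNF IgA and 30.6% higher in TSPAN7 against BDNF IgA.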

How the data were processed

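For 18 libraries of total RNA the authors removed adapters with cutadapt 1.8.1, aligned to hg19 (GRCh37) with STAR and counted reads per gene. The paper's methods name featureCounts for this and the submitters' processing notes HTSeq 0.6.1, and use of strand is not given in the sources used here. Deposited values are raw counts per gene symbol, unnormalised, and each series has its own file. Among rows of the second, 2055 exact repeats were dropped, none of them a member.

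Every series was fitted once, all 9 libraries together, in edgeR 4.0.16 under R 4.3.3. Low genes were removed by filterByExpr, libraries scaled by TMM and contrasts tested by the two-sided quasi-likelihood F test, with Benjamini-Hochberg adjustment over all genes in a comparison and a threshold of 0.05. Standard errors are the size of a log2 fold change over the root of its F value. Normalised counts put each library at the average effective size. Scripts were tested on simulated data. Alternatives were DESeq2 1.42.0, other scalings, filters and thresholds, offsets for GC and length (GENCODE, GRCh37), a replicate block, and leaving out each library. The 36 genes, the other lists and the promoter letters were chosen with earlier results of these data known. Values in every library are given for 9 members, at least 1 per role, and for up to 5 called members with the largest fall and rise in a comparison; other members are examples by role, of which CDK1 and AURKB were added after their values were seen. From other lists, called genes among the 4 of largest change are named, and CDKN1A and WEE1 whatever their values.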

Additional observations from a re-analysis of the deposited data

How the results depend on the processing

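Member counts and medians were recomputed under 22 alternatives, and promoter shares with a window from 150 bases before the start. A count stayed if equal or within 1.5 times its value, a median if within 1 SD and a share if within its confidence interval. The SD is the larger of those between library medians in the groups compared. Of these values 346 stayed, and the others moved (6), rose past (7) or fell below (40) that range. Counts of 0 that stayed 0, as for IgG against untreated cells, are among the 346. So are medians at an adjusted p under 0.01, which could not move because the fold changes are the same. Leaving out a library outside the groups compared acts on a comparison only through filter, scaling and shared spread. The 346 therefore do not measure robustness. Over the fits that left out 1 library, the counts ran from 1 to 4 higher and 2 to 8 lower for IgA against IgG, 1 to 5 higher and 4 to 8 lower for IgA against untreated cells, 4 to 27 lower for BDNF IgA, 1 to 7 lower and 0 to 1 higher for TSPAN7 IgA, and 3 to 23 higher for TSPAN7 against BDNF IgA. In these fits 13.8% to 28.5% of all genes were called for IgA against IgG and 14% to 28.2% for IgA against untreated cells. The shares were 3.83% to 14.6% for BDNF IgA, 3.95% to 12% for TSPAN7 IgA and 2.52% to 17.1% for TSPAN7 against BDNF IgA. An adjusted p under 0.01 gave 1 higher and 2 lower for IgA against IgG, beside 11.3% of all genes. For IgA against untreated it gave 5 in all beside 11.8%, 1 of them higher, with NDC80, CENPE, KIF11 and ASPM lower. In the second series it gave 7 lower for BDNF IgA, 1 lower for TSPAN7 IgA and 6 higher for TSPAN7 against BDNF IgA. The shares of all genes there were 3.41%, 4.12% and 3.09%. A test beyond a log2 change of 0.26 (glmTreat) gave 1 higher and 1 lower for IgA against IgG, beside 12.8% of all genes. For IgA against untreated it gave 1 higher and 3 lower beside 13.7%. In the second series glmTreat gave 0 in each comparison, beside 0.763%, 1.07% and 0.71% of all genes. Fitting only the 6 libraries compared gave 1 higher and 3 lower for IgA against IgG, beside 17% of all genes. For TSPAN7 IgA that fit gave 7 called genes beside 13%, against 6 beside 8.54% with all 9 libraries. The cause of these moves in the counts was not tested.

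Library size alone gave 0 higher for IgA against IgG and 1 higher and 9 lower for IgA against untreated, with member medians of -0.26 and -0.27. Without scaling for composition, 30 of the 36 genes lay below 0 in each of these comparisons, against 18 and 20 with TMM scaling. Among the genes with values in every library, 6 that were not called turned. Against IgG, CDK1 went to -0.080, MKI67 to -0.18, FOXM1 to -0.19, PLK1 to -0.15, BUB1 to -0.19 and TOP2A to -0.073. Against untreated cells CDK1 went to -0.036, MKI67 to -0.18, FOXM1 to -0.16, PLK1 to -0.043, BUB1 to -0.14 and TOP2A to -0.060. Upper-quartile scaling gave FOXM1 -0.024 and BUB1 -0.019 against IgG, FOXM1 -0.019 against untreated, FOXM1 -0.0035 with BDNF IgA and CCNB1 -0.0011 with TSPAN7 IgA; a minimum of 50 counts gave FOXM1 -0.0010 with BDNF IgA. GC and length offsets put the member medians at -0.13 against IgG and -0.17 against untreated, CDK1 at -0.033 against IgG, FOXM1 at -0.020 with BDNF IgA and CCNB1 at -0.0053 with TSPAN7 IgA. With the replicate block as well they gave 11 lower and a median of -0.13 against IgG, 8 lower and a median of -0.18 against untreated, CDK1 at -0.034 and -0.0024, FOXM1 at -0.021 with BDNF IgA and CCNB1 at -0.0056 with TSPAN7 IgA. The cause was not tested.

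With 1 library left out, ranges crossed 0 for several members, among them BUB1B against IgG (-0.089 to 0.21). The ranges below are for genes with values in every library, with IgG against untreated cells left aside. Against IgG those that crossed 0 were -0.11 to 0.19 for MKI67, -0.079 to 0.16 for FOXM1, -0.084 to 0.24 for PLK1 and -0.091 to 0.11 for BUB1. Against untreated cells they were -0.13 to 0.17 for MKI67, -0.078 to 0.16 for FOXM1, -0.0080 to 0.32 for PLK1 and -0.066 to 0.12 for BUB1. In the second series they were -0.034 to 0.051 for FOXM1 with BDNF IgA, -0.010 to 0.035 for CCNB1 and -0.055 to 0.036 for PLK1 with TSPAN7 IgA, and -0.0092 to 0.061 for CENPF between the antibodies. Over the named genes no called change turned its direction.

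Deviations of same-numbered libraries correlated at -0.069 to 0.25 (first series) and -0.017 to 0.089 (second). For other pairs the correlations were -0.21 to 0.14 and -0.077 to 0.053. The same-numbered ranges lay higher at both ends but overlapped the others, so they do not decide whether replicate numbers pair the samples. As a replicate block the numbers gave 11, 10, 0, 16, 7 and 14 called members in the 6 comparisons. Without the block there were 10, 9, 0, 14, 6 and 11, and no member call was lost by adding it. Over all genes the block took the calls for BDNF IgA from 1437 to 1655 and for TSPAN7 IgA from 1600 to 1759. For TSPAN7 against BDNF IgA they went from 1484 to 1728. For non-specific IgA they went from 4360 to 4340 against IgG and from 4503 to 4428 against untreated cells.

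Every member had at least 191 counts in each library. The precision of its changes rests on a spread estimated over all 9 libraries of the series, 3 in each group.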
